A study of Mus musculus with 2 samples.

Results

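Retrogenes are gene copies made from a spliced messenger RNA that was copied back into the genome, so their coding sequence lacks the introns of the parent gene. The results concern 9 such copies of housekeeping genes, Prps1l1, Timm8a2, Wdr20rt, Cetn1, Utp14b, Rpl10l, Rpl39l, Cstf2t and Rbmxl2, out of 31053 genes in the count matrices. They were chosen by name as intronless autosomal copies, with their levels in these libraries already known, so their levels are given as a description with no test. In male meiosis the X and Y chromosomes are silenced during pachytene, a process named meiotic sex chromosome inactivation. Many autosomal retrogenes come from X-linked housekeeping genes and are known for being used in spermatocytes while the parent is silent. Pachytene is the long stage of meiotic prophase in which homologous chromosomes are fully paired, and it is followed by diplotene and the first meiotic division.

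Germ cells came from adult C57BL/6 testis, with 1 wild-type library and 1 library of genotype Zfp541-/-, whose cells are called knockout-labelled. Per the labels' protocols, tetraploid cells were collected by flow cytometry and loaded on the 10x Chromium system, which reads transcripts near their 3' end. Whole testis is the name in the sample titles, but the source field gives tetraploid germ cells, and the wild-type library includes annotated spermatids. ZFP541 is a zinc finger protein of spermatocytes, and the labels used here do not give the deleted part of its gene. The authors' table assigned 8420 of 12639 wild-type barcodes and 8833 of 11580 knockout-labelled barcodes to stages. These stages run from differentiated spermatogonia through preleptotene, leptotene, zygotene, early, mid and late pachytene, diplotene and the first meiotic division (MI) to round and elongated spermatids. Unique molecular identifiers (UMIs), each standing for 1 captured transcript, were summed per stage and library and divided by the stage's total, giving counts per 1000000 (CPM). Each genotype had 1 library, so no difference has a replicate check, and intervals (95%) cover counting error alone.

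Some features of the libraries bear on all values. Wild-type annotated cells held 108612781 UMIs and knockout-labelled cells 119675250, with medians of 11246 and 10905 per cell. Within a stage the knockout-labelled cells were deeper, with median UMIs of 18665 against 7945 in mid pachytene and 23690 against 9210 in late pachytene. Cells before pachytene numbered 122 (wild-type) and 3210 (knockout-labelled). The knockout-labelled library held 13 diplotene cells and no later ones, so its values end at late pachytene. Zfp541 itself was higher in the knockout-labelled cells, with 70.6 CPM in late pachytene against 35.8 CPM in wild-type cells, so the label is not checked by this gene. Wild-type cells of early stages carried RNA of 5 elongating spermatid markers, summed at 554 CPM before pachytene and 214 CPM in late pachytene, against 2.92 and 0.0640 CPM in the knockout-labelled cells. Sertoli, Leydig, macrophage and myoid marker sums were between 0 and 5.85 CPM in the stages before pachytene and in pachytene of both libraries. Summed levels of 5 pachytene markers were 4113 CPM in wild-type late pachytene and 2891 CPM in its knockout-labelled counterpart. Those of 5 diplotene and division markers were 188 and 37.8 CPM in late and 211 and 78.1 CPM in mid pachytene, and the median of the authors' order of cells was -11784 and -13096 in late pachytene, so wild-type late pachytene cells lay later in that order. Only 17 annotated barcodes occurred in both libraries. The counts below of copies lower or nearly absent in mid and late pachytene were the same without them, and other counts were not rerun.

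The copies differed in how far they had moved from their parents. In GRCm38 all 9 lay on autosomes with their coding sequence in 1 exon, whereas all 9 parents had a coding sequence spread over several exons. Some copies had gained exons outside the coding sequence, and 4 of 9, Prps1l1, Rpl10l, Cstf2t and Rbmxl2, had transcripts of 1 exon only. On the X chromosome lay 8 of 9 parents, and the exception was Wdr20, on chromosome 12. Prps1l1, a phosphoribosyl pyrophosphate synthetase, is at chr12:34984761-34986436, and Wdr20rt, a copy of the deubiquitinase cofactor gene Wdr20, is at chr12:65225517-65233359. Timm8a2, related to a mitochondrial import chaperone, is at chr14:122034674-122038420. The ribosomal protein copies are Rpl10l at chr12:66283379-66284401 and Rpl39l at chr16:10170226-10174911. Cstf2t, a polyadenylation factor, is at chr19:31082837-31087069, antisense to Prkg1, and Rbmxl2, a nuclear RNA-binding protein, is at chr7:107209445-107210916. Utp14b, a ribosome assembly factor, is at chr1:78658038-78671512, on the same strand as Acsl3, which it overlaps.

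Coding identity to the parent ranged from 68.1% for Rbmxl2 to 95.6% for Wdr20rt. The shortest pair, Rpl39l and Rpl39, shows how reads of such near copies can still be told apart. Their coding sequences of 153 bases, from the GENCODE M21 transcripts, are printed 5′ to 3′ with the 23 differing bases in capitals.
Rpl39l: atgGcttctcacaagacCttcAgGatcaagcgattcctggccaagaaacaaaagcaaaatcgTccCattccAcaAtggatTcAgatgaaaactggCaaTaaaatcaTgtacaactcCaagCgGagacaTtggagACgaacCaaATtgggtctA
Rpl39: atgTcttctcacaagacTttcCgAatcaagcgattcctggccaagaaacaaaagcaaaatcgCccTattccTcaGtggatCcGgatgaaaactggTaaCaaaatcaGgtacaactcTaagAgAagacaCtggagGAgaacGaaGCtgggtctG
Most of the differing bases lay in the later part of the coding sequence, with a long stretch of none after the first few. Because the kit reads transcript ends, stretches of 90 bases from the last 500 bases of each transcript were searched for in all other genes. For 8 of the 9 copies 0% of these stretches occurred in another gene, and for Wdr20rt 5.13% occurred in Wdr20. Of the parents, Rpl10 shared 87.8% of its stretches with pseudogene copies, so its counts are uncertain.

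In the wild-type library, 7 of 9 copies were higher in pachytene to MI than before, by a rule of at least 2-fold with counting intervals that do not overlap. Of 8214 genes that reached 10 CPM in these stages, 31.7% met the same rule. Since these levels chose the copies, nothing is read from that comparison. Utp14b and Cstf2t did not meet it. The closest values inside and outside the rule were 3.15-fold for Rpl39l and 1.74-fold for Cstf2t. The wild-type base before pachytene was thin, with 4 to 161 UMIs per copy. With the knockout-labelled cells before pachytene as the base, the same 7 copies met the rule, but some folds moved far. The fold went from 25.8 to 1002 for Prps1l1, from 5.03 to 41.8 for Wdr20rt and from 17.4 to 73.5 for Cetn1, and from 0.333 to 0.205 for Utp14b.

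**Figure D1:**
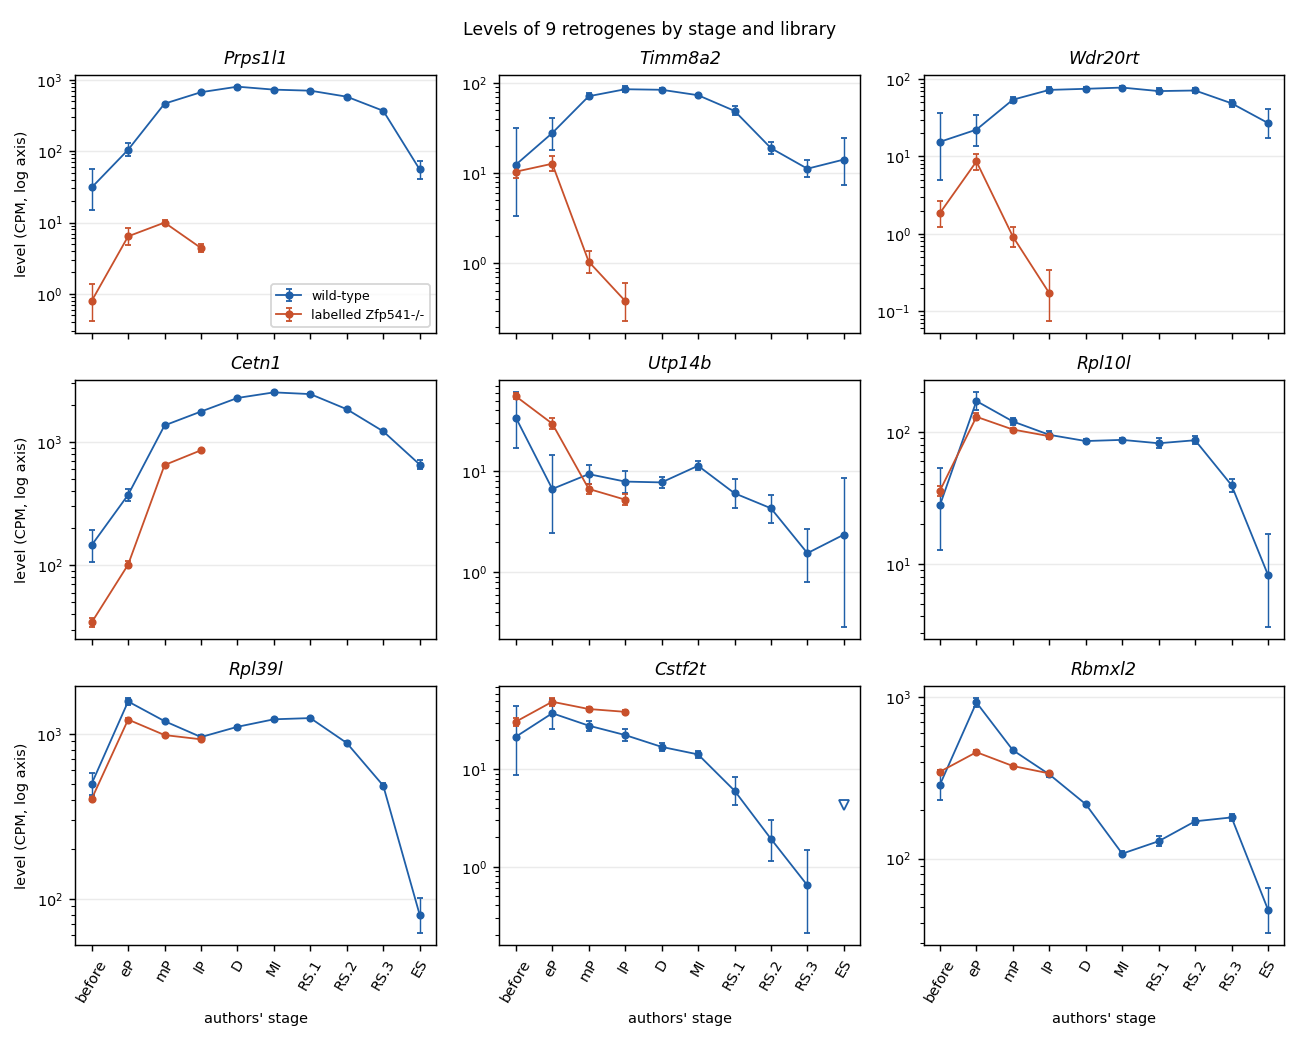
CPM of the 9 retrogenes (log axis) against stage for the wild-type and knockout-labelled cells, for stages of at least 50 cells, with all stages before pachytene pooled as before. Bars are 95% Poisson intervals for counting error and triangles mark 0 UMIs at the upper bound. Prps1l1, Timm8a2 and Wdr20rt separate between the libraries, with late pachytene at 668.5 and 4.40 CPM for Prps1l1, while Rpl10l, Rpl39l and Rbmxl2 nearly coincide there.

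The rising copies reached their highest wild-type level at different times. Prps1l1 went from 31.0 CPM before pachytene to 104.5 in early, 462.3 in mid and 668.5 in late pachytene. It was highest in diplotene at 798.8 CPM and was still at 701.9 CPM in the first round spermatids before 55.3 CPM in elongated spermatids. Cetn1, a calcium-binding centriole protein, was the most abundant copy from mid pachytene on, at 1362 CPM in mid pachytene, 1765 in late pachytene, 2275 in diplotene and 2525 in MI. These 3' counts do not scale with transcript length, so levels of different genes are set side by side only roughly. Wdr20rt stayed on a plateau, with 72.6 CPM in late pachytene, 75.0 in diplotene and 77.8 in MI, and the last pair do not differ beyond their intervals. Timm8a2 was highest in late pachytene at 84.8 CPM, close to 83.7 CPM in diplotene, and then lower, at 18.9 CPM in the second and 11.2 CPM in the third round spermatid stage.

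The ribosomal and RNA-binding copies peaked earlier. Rpl10l was at 171.2 CPM in early pachytene, 120.0 in mid and 95 in late pachytene, from 27.9 CPM before. Rpl39l was at 1572 CPM in early pachytene and between 880.3 and 1247 CPM from mid pachytene to the second round spermatid stage. Rbmxl2 was at 930.6 CPM in early pachytene, then 470.8, 333.1, 217.7 and 107.4 CPM in mid pachytene, late pachytene, diplotene and MI. All 3 of these copies had their highest value in the first pachytene stage.

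Cstf2t and Utp14b had another course. Cstf2t was at 21.7 CPM before pachytene on 7 UMIs, 37.8 in early, 28.2 in mid and 22.6 CPM in late pachytene, and 1.93 CPM in the second round spermatid stage. Elongated spermatids had 0 Cstf2t UMIs, which allows up to 3.53 CPM. Utp14b was highest before pachytene, at 34.1 CPM on 11 UMIs, and stayed between 6.67 and 11.3 CPM from early pachytene to MI. In these data Utp14b was therefore not a copy whose RNA is higher in pachytene. The knockout-labelled cells, with many more early cells, gave the same order for Utp14b, at 55.3 CPM before pachytene, 29.6 in early, 6.68 in mid and 5.23 CPM in late pachytene.

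The 9 wild-type profiles were compared over 9 stages of at least 50 cells, from early pachytene to elongated spermatids, all from 1 library. No stage before pachytene entered, so the profiles leave out the change into pachytene. Pearson's r of log2(CPM + 1) was 0.98 for Rpl10l with Rpl39l and 0.98 for Wdr20rt with Cetn1, and -0.33 for Cetn1 with Rbmxl2. Among 10363 genes, the profile most like that of Wdr20rt was Nlrp14 (r = 0.99), followed by Pabpc2 (r = 0.99). Prps1l1 was most like 4632411P08Rik and Cfap53, Cetn1 most like Meig1 and Gm17227, and Timm8a2 most like Prrg2 and Gm5622. Rpl10l was closest to Ywhae and Ccdc155, Rpl39l to Atp6v1g1 and Ubb, Cstf2t to Eea1 and 2900097C17Rik, Rbmxl2 to Wdr75 and Tmem67, and Utp14b to Spag1 and Dlst. These genes were picked on the wild-type library alone. In late pachytene, wild-type cells held 302.9 CPM of Nlrp14 against 3.76 CPM in knockout-labelled cells, and 435.1 against 400.0 CPM of Pabpc2. Cfap53, whose wild-type profile was close to that of Prps1l1 (r = 0.997), was at 149.6 and 113.2 CPM.

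The knockout-labelled library lacked most of the RNA of 3 copies in mid and late pachytene, namely Prps1l1, Timm8a2 and Wdr20rt. Wild-type and knockout-labelled mid pachytene cells held 462.3 and 9.98 CPM of Prps1l1, and late pachytene cells 668.5 and 4.40 CPM, a 152-fold difference. Timm8a2 was at 71.0 and 1.05 CPM in mid pachytene and at 84.8 and 0.384 CPM in late pachytene, a 221-fold difference. Wdr20rt was at 54.2 and 0.922 CPM in mid pachytene and at 72.6 and 0.171 CPM in late pachytene, on 579 and 8 UMIs, a 425-fold difference. For each of these 3 copies and both stages the counting intervals of the libraries did not overlap. After thinning of every cell to 3000 UMIs, the late pachytene log2 ratios were -7.31 for Prps1l1, -7.08 for Timm8a2 and -7.45 for Wdr20rt. With equal weight of bins of the authors' order of cells, in which wild-type late pachytene cells lay later, they were -7.15, -7.43 and -7.85. Diplotene and division markers were also lower in the knockout-labelled cells, and their part in these differences was not tested.

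Calls of this kind were common enough among all genes to need a background. In mid pachytene among copies with 10 CPM or more in either library, 3 of 8 were at least 4-fold lower, as were 4.27% of 7701 genes. In late pachytene it was 3 of 8 and 6.80% of 7635 genes. Nearly absent was set as under 5 CPM and at least 10-fold lower in the knockout-labelled cells. It held for 2 copies in mid pachytene, Timm8a2 and Wdr20rt (1.65% of all genes), and for these and Prps1l1 in late pachytene (2.96% of all genes). Prps1l1 was just outside at 9.98 CPM in mid pachytene and just inside at 4.40 CPM in late pachytene. The median log2 ratio of knockout-labelled to wild-type over the 8 copies was -0.70 in mid and -0.54 in late pachytene, against 0.15 and 0.11 over all genes. Since this contrast chose the copies, nothing is read from these counts. Utp14b was under 10 CPM in both libraries in both stages and is not among the 8.

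**Figure D2:**
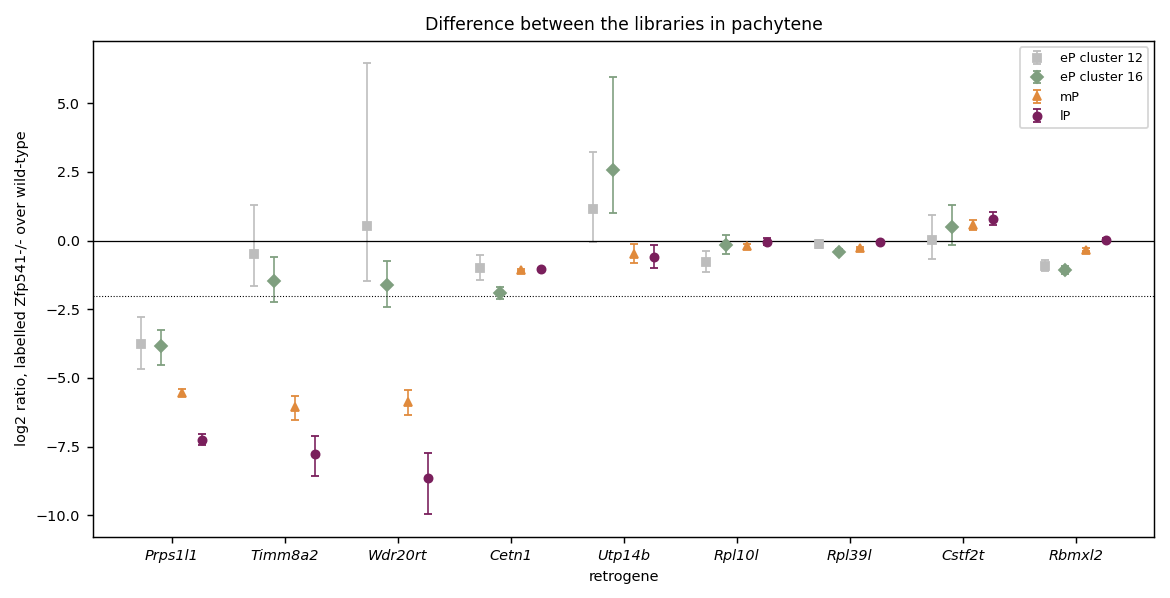
Log2 ratio of knockout-labelled to wild-type CPM for the 9 retrogenes within the early pachytene clusters 12 and 16 and in mid and late pachytene. Bars are 95% conditional binomial intervals for counting error and the dotted line marks a 4-fold lower level. Prps1l1, Timm8a2 and Wdr20rt lie below the dotted line in mid and late pachytene, at -7.25, -7.75 and -8.65 in late pachytene, and the points of the other 6 copies lie above it.

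The remaining copies kept at least part of their RNA in the knockout-labelled mid and late pachytene cells. Cetn1 was intermediate, at 1362 and 649.9 CPM in mid pachytene (log2 ratio -1.07, -1.10 to -1.04) and 1765 and 856.3 CPM in late pachytene (-1.04, -1.07 to -1.02). Rpl10l was at 95 and 92.7 CPM in late pachytene, with an interval of -0.15 to 0.08 that includes 0. For Rbmxl2 the levels were 333.1 and 337.9 CPM (interval -0.04 to 0.08). For Rpl39l they were 956.9 and 927.0 CPM (log2 ratio -0.05, -0.08 to -0.01). Cstf2t was the higher in knockout-labelled cells, at 28.2 and 41.8 CPM in mid (log2 ratio 0.57, 0.39 to 0.76) and 22.6 and 39.1 CPM in late pachytene (0.79, 0.57 to 1.02). Utp14b was at 7.90 and 5.23 CPM in late pachytene on 63 and 245 UMIs (-0.60, -1.0 to -0.17). With 1 library each, differences of the size seen for Utp14b, Cstf2t and Cetn1 cannot be set against a spread between animals.

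The pattern held inside the authors' clusters. Over 4 mid pachytene clusters the log2 ratio of Prps1l1 ran from -6.40 to -4.05 and over 3 late pachytene clusters from -7.89 to -7.03. Timm8a2 ran from -7.50 to -4.40 and from -7.62 to -6.82, and Wdr20rt from -7.29 to -3.98 and from -8.89 to -8.14. Cetn1 stayed between -1.16 and -0.92 in all 7 clusters, so its smaller difference was also seen in each cluster. The Rpl39l ratio changed sign between clusters, from -0.46 to 0.02 in mid and from -0.19 to 0.20 in late pachytene. Spermatid marker RNA in the wild-type cells moved with these differences, with a sum of 275 CPM against 0.0410 CPM in mid pachytene. Of the 5 elongating spermatid markers, 4 had 0 UMIs in the knockout-labelled mid pachytene cells and none did in wild-type. In wild-type elongated spermatids Prps1l1 was at 55.3, Timm8a2 at 14.1 and Wdr20rt at 27.1 CPM. Late pachytene sums of 5 round spermatid markers were 13.2 CPM (wild-type) and 0.832 CPM (knockout-labelled), and in the first round spermatid stage Prps1l1 was at 701.9, Timm8a2 at 48.9 and Wdr20rt at 70.1 CPM. The part of spermatid RNA in the wild-type pachytene levels was not tested.

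The 3 copies differed in how far the libraries were apart before mid pachytene. Over all stages before pachytene, Prps1l1 was at 31.0 CPM (14.8 to 56.9) in wild-type and 0.797 CPM (0.412 to 1.39) in knockout-labelled cells. Wdr20rt was at 15.5 CPM (5.03 to 36.1, on 5 UMIs) and 1.86 CPM (1.24 to 2.69). For Timm8a2 the intervals overlapped, at 12.4 CPM (3.37 to 31.7) and 10.4 CPM (8.80 to 12.1). The part of spermatid RNA in these wild-type values was not tested. Early pachytene was compared within its clusters 12 and 16, because the libraries mixed these clusters in different shares. Prps1l1 was apart in both clusters. Its levels were 63.7 and 4.75 CPM in cluster 12 (log2 ratio -3.75, -4.69 to -2.79), and in cluster 16 they were 124.8 and 8.56 CPM (-3.85, -4.51 to -3.25). It was the sole copy at least 4-fold lower there, 1 of 8 in cluster 12 (2.80% of all genes) and 1 of 9 in cluster 16 (2.73%). It was nearly absent in cluster 12 (1.11% of all genes), and 0 copies were in cluster 16 (1.03%). Timm8a2 was at 16.8 and 13.0 CPM in cluster 12, on 5 and 63 UMIs, with an interval of -1.66 to 1.31 that includes 0. In the other direction, Utp14b was at 3.33 and 24.6 CPM in cluster 16, on 2 and 92 UMIs (log2 ratio 2.57, 0.99 to 5.95). It was the 1 copy of 9 at least 4-fold higher there, as were 5.52% of all genes. In cluster 12 Utp14b was at 13.4 and 33.4 CPM on 4 and 162 UMIs, with an interval of -0.07 to 3.21, and 0 of 8 copies were at least 4-fold higher there (4.52% of all genes). Cluster 16 had 33.3 and 12.3 CPM of Timm8a2 (log2 ratio -1.46, -2.22 to -0.60). Wdr20rt had 1 wild-type UMI in cluster 12, and was at 31.6 and 10.4 CPM in cluster 16 (-1.62, -2.43 to -0.73). For Cetn1, cluster 12 had 157.5 and 79.9 CPM, and cluster 16 had 479.2 and 128.7 CPM. Rbmxl2 was lower in both, with 847.8 and 451.9 CPM in the former and 971.8 and 465.1 CPM in the latter.

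Within the knockout-labelled library alone, 5 of 9 copies met the rule for a higher level from pachytene on. Of 8167 genes that reached 10 CPM in these stages, 30.0% met it. The 5 copies were Prps1l1, Wdr20rt, Cetn1, Rpl10l and Rpl39l. Prps1l1 and Wdr20rt stayed under 10 CPM there and so are outside that background, with which the 5 of 9 is not directly comparable. Prps1l1 went from 0.797 CPM before pachytene, on 12 UMIs, to 6.41 in early and 9.98 in mid pachytene, then 4.40 in late pachytene. Wdr20rt went from 1.86 to 8.62 CPM in early pachytene and then to 0.922 and 0.171 CPM in mid and late pachytene. Timm8a2 was at 19.3 CPM in the first spermatogonial stage, 10.4 CPM over all stages before pachytene and 12.7 CPM in early pachytene, and then at 1.05 and 0.384 CPM. In this library Timm8a2 and Wdr20rt were thus lower in late pachytene than in early pachytene and in the pooled stages before it. Cetn1 instead went from 34.4 CPM before pachytene to 101.1, 649.9 and 856.3 CPM. The second spermatogonial and preleptotene stages had 0 Wdr20rt UMIs, so late pachytene is not shown to be below them.

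**Figure D3:**
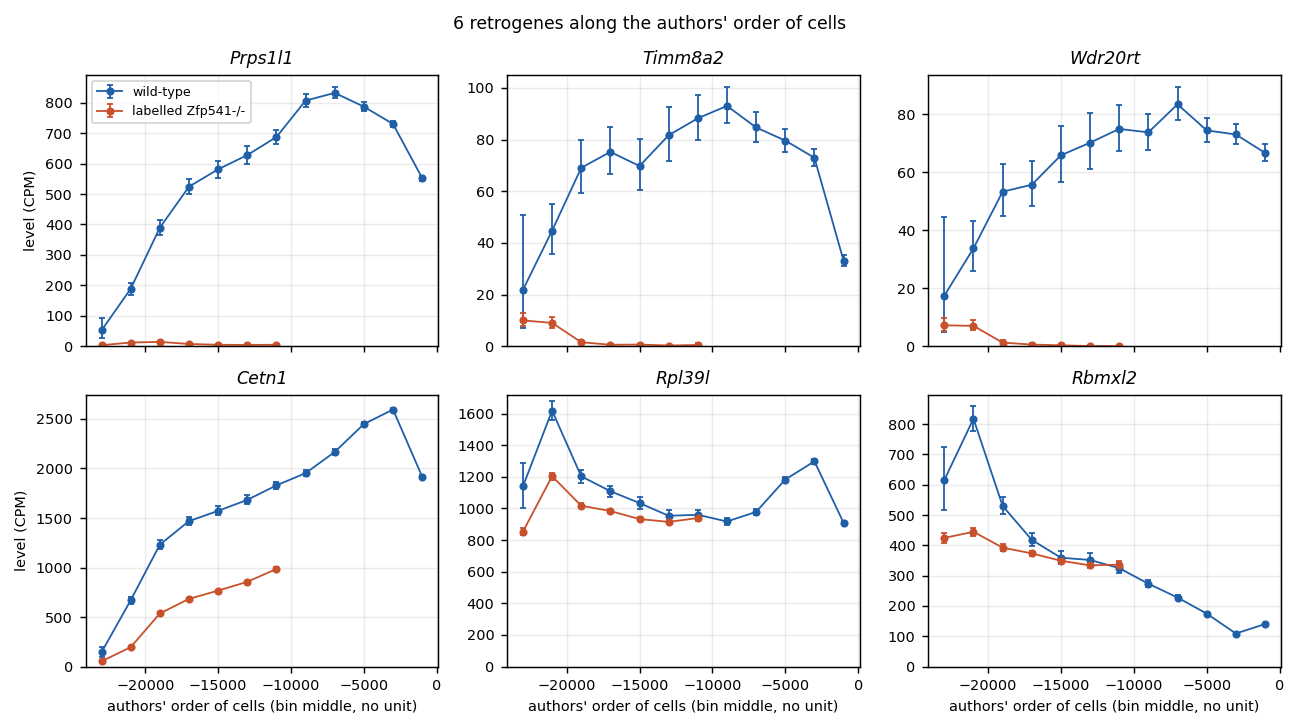
CPM (linear axis) of Prps1l1, Timm8a2, Wdr20rt, Cetn1, Rpl39l and Rbmxl2 along the authors' order of cells, a deposited score with no unit. Bins are of 2000 with at least 20 cells per library, and the lowest scores, which hold most cells before pachytene, lie outside them. Bars are 95% Poisson intervals for counting error. Prps1l1 climbs in wild-type cells from 52.4 to 832.3 CPM, and in knockout-labelled cells stays between 3.61 and 14.4 CPM.

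The authors' order of cells, a score read as a finer time scale, gave the same picture without stage borders. Bins began above the median score of the cells before pachytene, -25549 (wild-type) and -24714.5 (knockout-labelled), so most of those cells lay outside. Wild-type Prps1l1 was at 52.4, 188.8, 389.6 and 524.2 CPM in the first 4 bins used and reached 832.3 CPM. In the same 4 bins the knockout-labelled cells had 3.61, 12.3, 14.4 and 7.49 CPM. Timm8a2 was at 21.8 and 10.0 CPM in the first of these bins, at 44.7 and 9.05 CPM in the second, and at 69.1 and 1.56 CPM in the third. Wdr20rt was at 33.8 and 7.05 CPM in the second and at 53.3 and 1.26 CPM in the third bin. From the second bin to the third, the wild-type levels of Timm8a2 and Wdr20rt were higher and the knockout-labelled levels lower. The bins are not matched in stage, since the second held 51.0% mid pachytene cells in wild-type and 75.9% early pachytene cells in the knockout-labelled library.

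The same contrast was visible cell by cell. In late pachytene 99.5% of 827 wild-type cells had a Prps1l1 UMI (98.8% to 99.9%, exact Clopper-Pearson) against 9.46% of 1945 knockout-labelled cells (8.20% to 10.8%). Timm8a2 was detected in 54.1% and 0.925% of cells and Wdr20rt in 49.7% and 0.411%. After every cell was thinned to 3000 UMIs, leaving out 190 wild-type and 1336 knockout-labelled shallower cells over all stages, the late pachytene shares were 85.8% and 1.23% for Prps1l1, 21.5% and 0.154% for Timm8a2 and 20.1% and 0.103% for Wdr20rt. Knockout-labelled cells before pachytene, at a median depth of 3555 UMIs, had thinned shares of 0.210% for Prps1l1, 3.15% for Timm8a2 and 0.630% for Wdr20rt. In value, the late pachytene shares of Timm8a2 and Wdr20rt were below those of the pooled cells before pachytene of their own library. They rest on cell numbers at or under the limit of 3 counts, so for Wdr20rt a lower thinned share is not shown. Whether these few UMIs come from the cells or from free RNA was not tested.

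For Rpl10l and Rbmxl2 the shares differed at full depth and were close after thinning, whereas thinned shares of Cstf2t and Cetn1 still differed. Rpl10l was found in 56.1% of wild-type and 84.4% of knockout-labelled late pachytene cells, and in 21.9% and 22.5% after thinning, with overlapping intervals. Rbmxl2 was found in 92.1% and 99.5%, and in 61.1% and 61.9% after thinning. Cstf2t was found in 19.8% and 56.6%, and in 6.79% and 11.9% after thinning. Thinned shares of Cetn1 were 99.6% and 91.4%.

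The parents were measured with the copies to see whether the 2 followed opposite courses. Of the 8 X-linked parents, 7 of the 7 with at least 10 CPM were at least 10-fold lower in wild-type late pachytene than before pachytene, and 8 of 8 were in knockout-labelled cells. Rbmx, at 6.19 CPM before pachytene in wild-type, was not counted. This is what nearly all X-linked genes showed, with 99.6% of 255 in wild-type and 98.3% of 286 in knockout-labelled cells, against 15.0% of 8948 and 13.0% of 9055 autosomal genes. Rpl39, which encodes a large-subunit ribosomal protein, was at 547.9 CPM before pachytene and 1.00 CPM in late pachytene in wild-type, and at 653.7 and 7.40 CPM in knockout-labelled cells. Prps1 was at 27.9 and 0.125 CPM in wild-type and at 43.3 and 0.661 CPM in knockout-labelled cells. The autosomal parent Wdr20 was at 31.0 and 6.52 CPM in wild-type and 32.8 and 8.30 CPM in knockout-labelled cells, 4.75-fold and 3.95-fold lower.

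**Figure D4:**
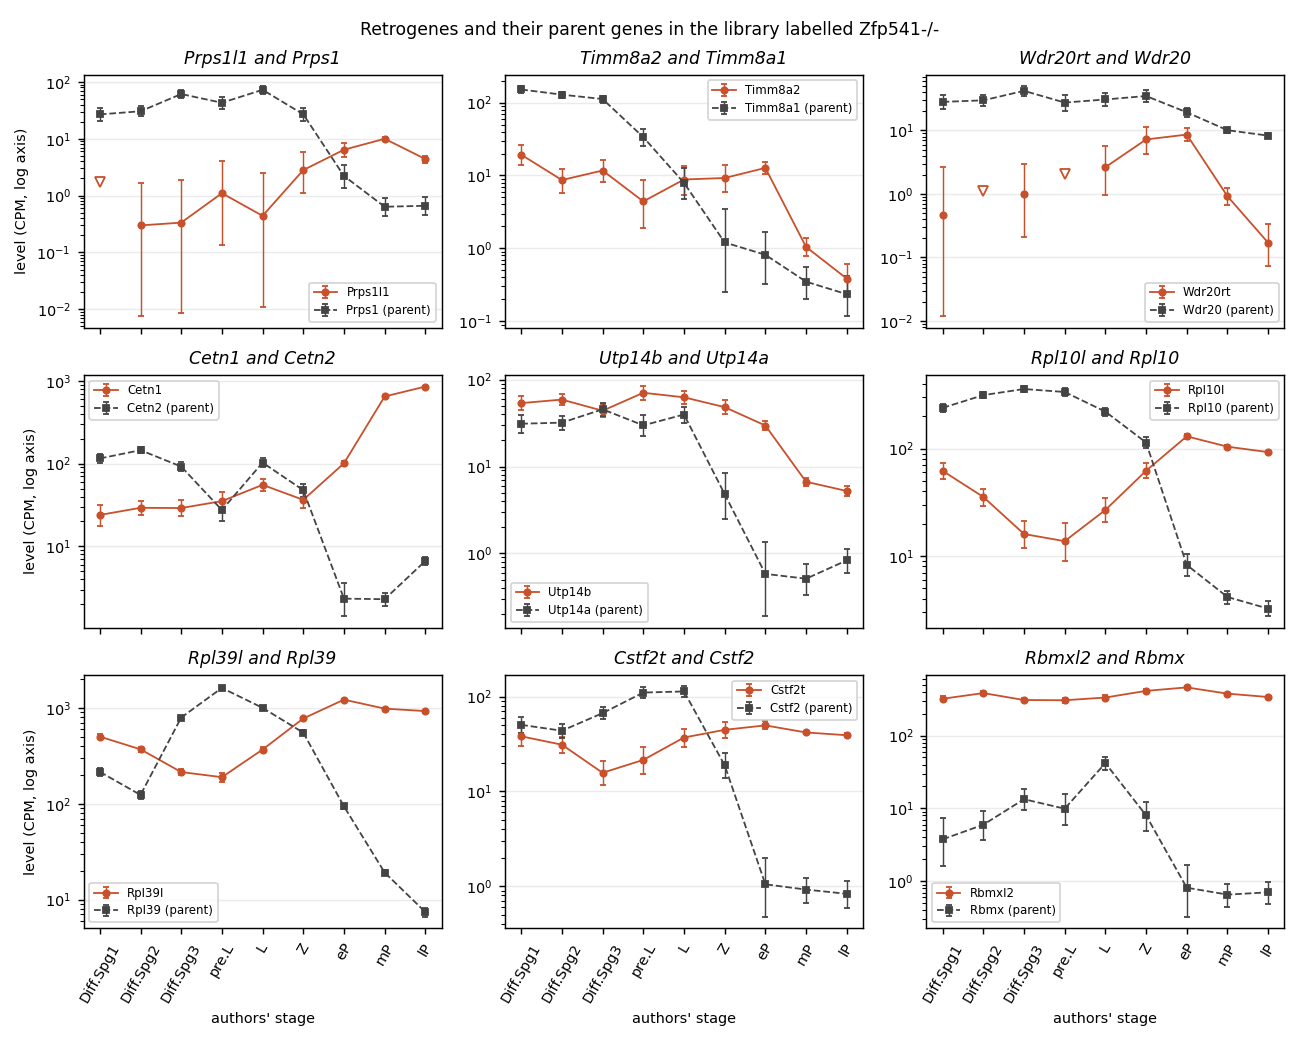
CPM (log axis) of each retrogene and its parent by stage in the knockout-labelled cells, up to late pachytene. Bars are 95% Poisson intervals for counting error and triangles mark 0 UMIs at the upper bound. The X-linked parents are low by late pachytene, as Rpl39 goes from 1618 CPM in preleptotene to 7.40 CPM.

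All X-linked genes together held 1.64% of wild-type UMIs before pachytene, 0.108% in early, 0.0182% in mid and 0.0131% in late pachytene. In knockout-labelled cells the shares were 1.90%, 0.141%, 0.0357% and 0.0368%. Some parents had more UMIs in knockout-labelled pachytene. In mid pachytene Rpl39 was at 0.926 and 19.1 CPM and Rpl10 at 0.926 and 4.16 CPM. Cetn2, the X-linked centrin, had 312 UMIs in knockout-labelled late pachytene (6.66 CPM) and 0 in wild-type, at least 17.7-fold higher against the limit of 3 counts. Along the authors' order of cells, the knockout-labelled level of Cetn2 was at 0.743 CPM between -20000 and -18000 of the score and higher in each later bin, at 2.02, 3.97, 6.33 and 10.0 CPM. Wild-type cells held between 0 and 0.351 CPM in those bins. The knockout-labelled library held more cells before pachytene (36.3% against 1.45% of annotated cells), the stages in which these parents are abundant, and the part of free RNA in these values was not tested.

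The share of the copy in the UMIs of copy and parent gives the switch within each pair. Copy and parent have different transcript ends, so the share is compared between stages and libraries, not read as a ratio of molecules. Rpl39l held 38.1% of its pair before pachytene and 99.2% in late pachytene of the knockout-labelled cells, and 47.6% and 99.9% in wild-type. Rpl10l held 11.8% and 96.6% in knockout-labelled and 7.63% and 99.5% in wild-type cells. For the ribosomal pairs the sum of copy and parent was nearly the same in both libraries in late pachytene, 957.9 and 934.4 CPM for Rpl39l with Rpl39 and 95.5 and 96.0 CPM for Rpl10l with Rpl10.

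For the 3 nearly absent copies, neither the copy nor the parent was present in knockout-labelled late pachytene at the wild-type level of the pair. The sum of Prps1l1 and Prps1 was 44.1 CPM before pachytene, 8.62 in early and 5.06 CPM in late pachytene of knockout-labelled cells, against 668.6 CPM in wild-type late pachytene. The sum of Timm8a2 and Timm8a1 was 88.1 CPM before pachytene and 0.619 CPM in late pachytene, against 84.8 CPM in wild-type. The sum of Wdr20rt and Wdr20 was 34.6 CPM before and 8.47 CPM in late pachytene, against 79.1 CPM. Of its pair, Wdr20rt held 91.8% in late pachytene of wild-type and 2.02% (0.87% to 3.93%) of knockout-labelled cells.

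In wild-type round spermatids the pairs went separate ways. Cstf2t held 98.4% of its pair in late pachytene, 56.7% in the first, 5.98% in the second and 1.11% in the third round spermatid stage, as Cstf2 went to 57.3 CPM. Utp14b held 43.7%, 11.7% and 5.41% in the 3 round spermatid stages, with Utp14a at 32.5 CPM in the second. Rpl39l kept 99.8% of its pair in the third stage, Cetn1 99.4%, Rbmxl2 99.0% and Prps1l1 98.0%. Rpl10 and Rpl39 stayed at or below 5.01 CPM in these stages. All X-linked genes together went from 0.0165% of UMIs in MI to 0.288%, 0.803% and 1.30% in the 3 round spermatid stages.

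Promoters were compared between copies whose RNA was nearly absent from knockout-labelled cells and copies whose RNA was kept. RefSeq promoter sequences (GRCm38.p6, 250 bases before to 50 after the start) were at hand for 6 of 9 copies, of which Timm8a2 is the sole nearly absent one. It is printed with the promoters of Rpl10l and Rpl39l, which kept their RNA, in the direction of transcription. Capitals mark matches to TAACNG or CAACNG on either strand, a core bound by MYB factors, a family that includes the spermatocyte regulator A-MYB. The windows are chr14:122034424-122034723 on the plus strand for Timm8a2, chr12:66284352-66284651 on the minus strand for Rpl10l and chr16:10169978-10170277 on the plus strand for Rpl39l.
Timm8a2: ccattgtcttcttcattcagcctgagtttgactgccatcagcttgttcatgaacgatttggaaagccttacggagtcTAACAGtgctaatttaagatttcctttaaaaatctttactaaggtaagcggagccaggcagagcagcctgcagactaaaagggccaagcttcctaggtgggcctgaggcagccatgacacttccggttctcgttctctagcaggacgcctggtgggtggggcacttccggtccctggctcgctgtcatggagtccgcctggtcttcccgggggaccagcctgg
Rpl10l: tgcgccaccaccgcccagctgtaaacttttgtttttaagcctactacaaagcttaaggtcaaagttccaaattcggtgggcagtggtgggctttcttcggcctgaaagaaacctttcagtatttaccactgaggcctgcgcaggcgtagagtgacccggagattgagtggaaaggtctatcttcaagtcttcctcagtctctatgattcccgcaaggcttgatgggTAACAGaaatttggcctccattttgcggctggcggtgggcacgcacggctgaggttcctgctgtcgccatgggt
Rpl39l: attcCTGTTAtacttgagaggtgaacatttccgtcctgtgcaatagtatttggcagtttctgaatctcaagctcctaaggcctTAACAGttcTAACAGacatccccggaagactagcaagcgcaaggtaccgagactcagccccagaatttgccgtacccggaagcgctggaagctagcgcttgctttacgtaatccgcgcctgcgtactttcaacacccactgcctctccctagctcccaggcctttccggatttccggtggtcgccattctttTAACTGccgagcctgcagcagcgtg
Timm8a2 held 1 match, 173 bases before the start, and Rpl10l held 1, 24 bases before the start. Rpl39l held 4, a number reached by 1.22% of 32851 promoters, and Cstf2t held 3, reached by 4.73%. At least 1 match stood in 49.7% of all promoters, and Utp14b and Rbmxl2 held 0. None of the 6 held TGACGTCA (1.79% of promoters), its core TGACG (20.8%) or GTTGCC (12.5%), searched on both strands. The 6 promoters held from 10 CpG in Timm8a2 to 40 in Utp14b, against a median of 7 over all promoters. A match or its absence is a description of these letters only.

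A further 14 autosomal retrogenes of X-linked parents were listed, also with earlier results of these data known, and 13 were in the matrices. Of the 10 with at least 10 CPM in mid pachytene, 1 was at least 4-fold lower in knockout-labelled cells, and of 9 in late pachytene 3 were, with 4.27% and 6.80% of all genes as the background. Gykl1, a glycerol kinase copy, was at 108.4 and 6.64 CPM in mid and 156.3 and 6.78 CPM in late pachytene (log2 ratio -4.52, -4.71 to -4.35). Fam50b was at 257.4 and 37.9 CPM in late pachytene (-2.76, -2.85 to -2.67). Pgk2, the sperm phosphoglycerate kinase, was at 35.1 and 6.06 CPM (-2.53, -2.78 to -2.29). In wild-type elongated spermatids Pgk2 was at 429.7 CPM, and the part of spermatid RNA in its wild-type pachytene level was not tested. By the rule for nearly absent, 0 of the list were in mid and late pachytene, but in early pachytene 2 of 9 were in cluster 12, Gykl1 and Fam50b, on 6 and 10 wild-type UMIs (1.11% of all genes). In cluster 16 it was 3 of 10, Pgk2, Gykl1 and Ubl4b, on 7, 21 and 13 wild-type UMIs (1.03% of all genes).

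The rest of that list was closer between the libraries. Gk2, a further glycerol kinase copy, was at 184.9 and 163.9 CPM in late pachytene (log2 ratio -0.17), although its relative Gykl1 differed 23.0-fold. Pdha2, the testis pyruvate dehydrogenase subunit, was at 164.3 and 147.0 CPM, and Rpl36al at 435.0 and 440.8 CPM (0.02, -0.03 to 0.07). Cox7b2, a cytochrome oxidase subunit, was at 1961 and 1441 CPM, Mcts2 at 107.9 and 75.3 CPM and Rbmxl1 at 30.1 and 17.9 CPM. In mid pachytene Tmem185b was at 10.7 and 4.88 CPM. The median log2 ratio of the list was -0.52 in both stages, against 0.15 and 0.11 over all genes. Ubl4b, under 10 CPM in both stages, had 30 wild-type and 0 knockout-labelled UMIs in late pachytene, while wild-type elongated spermatids held 2659.5 CPM.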

How the data were processed

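The submitters' processing notes name Cell Ranger 3.1.0, Seurat 3.2.0 and the genome build mm10. The deposited matrices hold UMI counts per gene and barcode with no normalisation. Per the file headers, the authors' cell table gives each annotated cell's cluster, stage, percent of mitochondrial UMIs and an order score with no unit. Its derivation was not given in the sources used here. A merged matrix was not used.

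Counts were summed per stage and library and scaled to CPM. Log2 ratios were taken after adding 0.5 counts, in stages of at least 50 cells in each library, and their intervals without added counts. Counts of genes past a fold between the libraries, and median ratios, were taken among genes with 10 CPM or more in either library. Ratios of named genes had no such minimum. All stages before pachytene were pooled as the base. Cells are not replicates, so no test was run with 1 library per genotype. Intervals (95%, exact Poisson for sums, Clopper-Pearson for shares, conditional binomial for ratios) cover counting error only, and a count of 0 was read as allowing 3 counts. Shares of cells were also taken after thinning each cell to 3000 UMIs. No doublet caller was run, and an alternative left out cells over 2 times the median UMIs of their stage. The ratios were tested on simulated data. Coordinates and coding sequences are from GENCODE M21 (GRCm38), promoters from RefSeq. Scripts used Python 3.11.15, numpy 2.4.6, scipy 1.17.1, pandas 2.3.3, biopython 1.88 and matplotlib 3.10.9.

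All 9 copies, their 9 parents, the other listed retrogenes, Zfp541 and, for each copy, the 2 genes most like it were named. The copies, lists and tests were chosen with earlier results of these data known. Alternatives were median-of-ratios scaling, 1 added count, other minimum levels, a mitochondrial limit of 5%, thinning, equal weights of clusters, bins or cells, cells with shared barcodes left out, and another base or stage. Rps4l was not analysed here.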

Additional observations from a re-analysis of the deposited data

Results flagged for a closer look

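Barcodes that the authors' table assigns to no stage, 4219 in the wild-type and 2747 in the knockout-labelled library, enter no comparison of the report. All 9 copies had UMIs there in the knockout-labelled library above the limit that a count of 0 allows. The copies that were nearly absent from late pachytene were also the lowest there. Prps1l1 was at 5.37 CPM in the knockout-labelled and 567.8 CPM in the wild-type barcodes, Timm8a2 at 3.11 and 51.2 CPM, and Wdr20rt at 1.22 and 66.0 CPM. Cetn1 was at 444.3 and 1881 CPM, Rpl10l at 63.1 and 76.9 CPM and Rpl39l at 636.0 and 978.1 CPM. Utp14b was at 20.6 and 7.87 CPM, Cstf2t at 31.4 and 13.8 CPM and Rbmxl2 at 319.6 and 195.9 CPM. The stages of these barcodes are not known, so the values are not matched in stage.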

How the results depend on the processing

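Prps1l1, Timm8a2 and Wdr20rt were at least 4-fold lower in mid and late pachytene under all 10 alternatives run for each stage, and the counts of nearly absent copies stayed at 2 and 3. The 7 copies that rose in wild-type were the same under the 4 alternatives run for that result. Of 144 log2 ratios of copies under alternatives, 127 moved by less than their counting interval, 17 moved further and 0 changed direction while called. The late pachytene ratio of Wdr20rt, -8.65, was -7.45 after thinning and -7.85 with equal weight of bins. Thinning also moved Timm8a2 from -7.75 to -7.08 in late pachytene and Wdr20rt from -5.86 to -5.23 in mid pachytene. The number of copies with a lower share of cells in knockout-labelled late pachytene was 3 at full depth and 5 after thinning. Genes at least 4-fold lower numbered 329 in mid and 519 in late pachytene, 93 and 155 with a minimum of 50 CPM, and 3539 and 3732 with no minimum. Of the other retrogenes, 3 were at least 4-fold lower in late pachytene, and 2 with a minimum of 50 CPM. The equal-weight bins, the limit on cells over 2 times the median, the shared barcodes, the base before pachytene and the mid pachytene stage for parents were chosen after seeing the data. No paired analysis was possible because each genotype had 1 library. The thin wild-type base of 122 cells limits every fold over the stages before pachytene.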
